A study of Homo sapiens with 9 samples.

Results

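Streptavidin ChIP-seq of bio-zfp148 was set against the same pulldown from cells that carried only the biotin ligase. The comparison used the 2 bio-zfp148 and the 2 BirA ChIP libraries, 4 of the 9 samples of the series, which comprise 6 ChIP and 3 input libraries. These 4 were chosen by their labelled cell line, and both the peak lists of single libraries and the pooled lists were read. All cells were K562, a human erythroleukaemia line, and all stably expressed BirA, a bacterial biotin ligase. The bio-zfp148 cells in addition carried zfp148 with a 23-residue biotin acceptor motif at its amino end, in clones picked for a level near that of the endogenous protein. The BirA cells were the parental line with the ligase and no tagged protein. Every group was grown for 48 h with hemin, at 50 mM as the labels give it, and fixed with 1% formaldehyde for 10 min. The labels do not say how many clones were used or whether replicates came from separate cultures, so the spread between replicates may be technical. The files hold peaks and no expression, so the identity of the cells was taken from the labels.

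Zfp148, also called ZBP-89, is a zinc finger protein of the Krüppel type that binds G-rich DNA, often near gene starts, and acts as an activator or a repressor. BirA joins biotin to a lysine in the acceptor motif, and streptavidin beads then recover the tagged protein with its cross-linked DNA. Cells also hold a few carboxylases that carry biotin of their own, and open chromatin can stick to beads, so a ligase-only pulldown shows what is recovered without a tagged factor. Hemin drives K562 cells towards erythroid maturation, with a rise in globin synthesis.

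The libraries differed greatly in depth, and the BirA replicates stood apart from each other. After duplicate removal the bio-zfp148 libraries held 810565 and 1497503 tags (mapped reads), against 15956688 in BirA replicate 1 and 1080363 in BirA replicate 2. In BirA replicate 1 the caller kept up to 2 tags per position, against 1 in the other libraries, and the input was 0.388 times as deep as the ChIP, against 4.42 to 8.17 times in the others. Over windows of 1 Mb, the log-scaled shares of peaks gave a Pearson correlation of 0.87 between the bio-zfp148 replicates and 0.45 between the BirA replicates. BirA replicate 2 correlated with the bio-zfp148 libraries at 0.76 and 0.77, and BirA replicate 1 with them at 0.44 and 0.46. These correlations are a description over windows that share library and depth. BirA replicate 2 was thus nearer to the tagged libraries than to its own replicate, and the results below are given against each BirA library.

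The bio-zfp148 lists held a larger share of their tags in peaks than either control list, but over a called length that also differed. Nuclear peaks held 18.7% and 15.1% of the filtered tags in bio-zfp148 replicates 1 and 2, against 8.79% and 5.39% in BirA replicates 1 and 2. The groups did not overlap, with means of 16.9% ± 2.57 and 7.09% ± 2.40 (SD, n = 2 each; exact permutation test, two-sided p = 0.33, the smallest that 2 against 2 can give). Bio-zfp148 peaks covered 8.37 and 10.9 Mb, and BirA peaks 38.9 and 3.91 Mb. Per Mb of called nuclear sequence the bio-zfp148 libraries held 2.24% and 1.39% of their tags, and the BirA libraries 0.226% and 1.38% (exact permutation p = 0.33), so bio-zfp148 replicate 2 and BirA replicate 2 were nearly equal. The strongest peaks separated the groups as well. Tags per peak were divided by the filtered tags of the library and multiplied by 1000000, and are called scaled tags from here on. Their 99th percentile over the peaks of a library reached 82.4 for bio-zfp148 replicate 1 and 56.1 for replicate 2, against 4.89 and 26.8 for the BirA replicates (exact permutation p = 0.33). No overlap between groups was seen here either.

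The median over all peaks of a list did not separate the groups. The median peak held 6.17 and 4.67 scaled tags in bio-zfp148, against 1.00 and 5.55 in BirA (exact permutation p = 0.667). BirA replicate 2 lay between the bio-zfp148 libraries, and only the deep BirA replicate 1 lay below them. Over the strongest 5000 peaks of each list the medians were 14.8 and 12.0 in bio-zfp148 and 2.51 and 5.55 in BirA, with no overlap (exact permutation p = 0.33). The same held at a fold enrichment of at least 10, with medians of 12.3 and 8.01 against 1.13 and 5.55 (exact permutation p = 0.33). The groups still overlapped among peaks whose score, 10 times the negative log10 of p, was at least 100. Medians there were 6.17 and 4.67 in bio-zfp148 and 2.07 and 5.55 in BirA (exact permutation p = 0.667). The strongest 5000 peaks are also a larger part of the BirA replicate 2 list than of the bio-zfp148 lists. Whether the groups overlapped therefore depended on which peaks were counted. The bio-zfp148 libraries had median peak widths of 475 and 545 bp, and the BirA libraries 515 and 487 bp, a difference of 9 bp with overlapping groups (exact permutation p = 1). The number of peaks did not order the groups, with 16421 and 18603 in bio-zfp148 and 66002 and 7819 in BirA. The smallest number of tags in a called peak was 4, 5, 12 and 5 in the same order, so calls rested on few tags in 3 of the 4 libraries. By the authors' own false discovery rate, 98.7% and 96.1% of the bio-zfp148 peaks and 94.4% of the BirA replicate 2 peaks lay at or under 5%, against 0 of the BirA replicate 1 peaks.

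**Figure D1:**
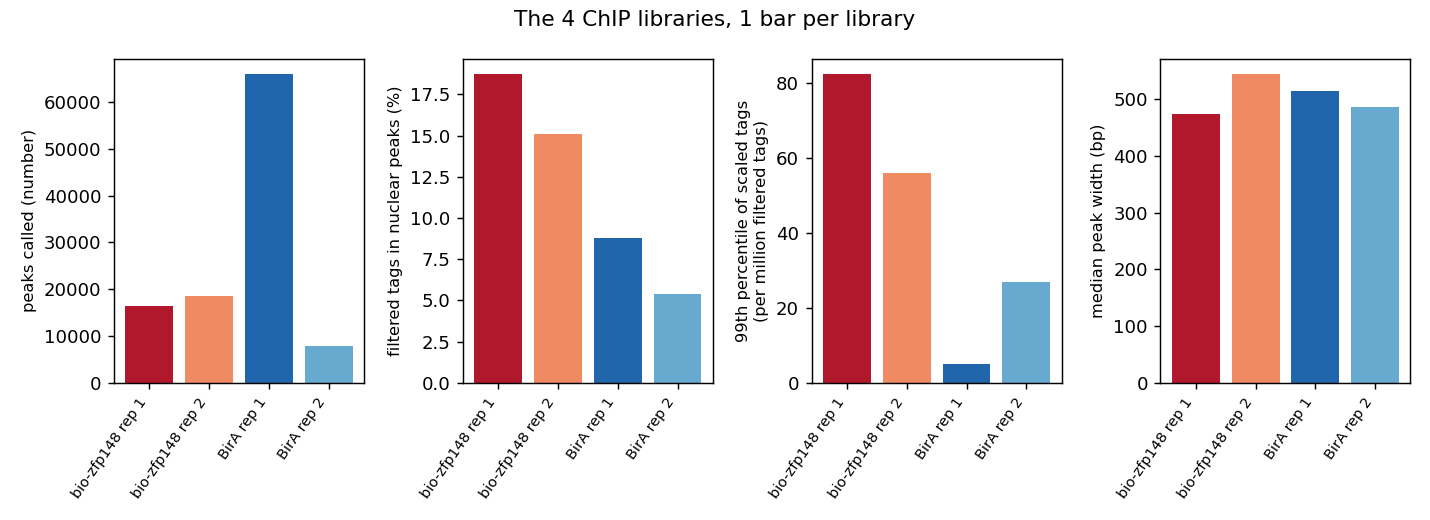
Peaks called (number), filtered tags in nuclear peaks (%), 99th percentile of scaled tags per peak (tags per 1000000 filtered tags) and median peak width (bp), 1 bar for each of the 4 ChIP libraries with no error bar. Both bio-zfp148 libraries (red shades) stand above both BirA libraries (blue shades) in the panels of tags in nuclear peaks and of the 99th percentile, at 18.7% and 15.1% against 8.79% and 5.39% of tags, while peak number and width do not separate the groups.

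Peaks of the 4 lists were merged into 90845 regions wherever they overlapped by at least 1 bp. Of these, 8469 were called in both bio-zfp148 libraries, and are called replicated bio-zfp148 regions here. Neither BirA library had a peak at 5100 of them, or 60.2% (exact 95% interval 59.2 to 61.3%, which covers counting error only). BirA replicate 2 alone met 1678, BirA replicate 1 alone met 1083, and both met 608. At least 1 BirA library therefore had a peak at 39.8% (38.7 to 40.8%) of the replicated bio-zfp148 regions. Against BirA replicate 1 that share was 19.97%, and against BirA replicate 2, with 7819 peaks to its 66002, it was 27.0%. The shorter control list thus met more of these regions than the longer one.

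Regions that a single bio-zfp148 library called were met less by any BirA peak. The share was 16.0% (15.2 to 16.8%) for replicate 1 and 22.9% (22.04 to 23.71%) for replicate 2. These regions were also smaller. Where no BirA peak lay, their median span was 429 and 502 bp, against 667 bp at replicated regions. Their median level was 4.93 and 4.01 scaled tags, against 8.64 and 6.68. Length and tag level were not matched in this contrast. Read from the control side, 1859 regions were called in both BirA libraries, and 57.0% (54.7 to 59.2%) of them had a bio-zfp148 peak. Of the BirA replicate 2 regions, 47.5% were called in at least 1 bio-zfp148 library, against 6.44% of the BirA replicate 1 regions. The BirA libraries met each other at 2.82% of the replicate 1 regions and 24.1% of the replicate 2 regions. A BirA replicate 2 region therefore had a bio-zfp148 peak more often than a peak of its own replicate. Only 800 regions were called in both BirA libraries and in neither bio-zfp148 library. Most regions, 60858, were called in BirA replicate 1 alone.

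**Figure D2:**
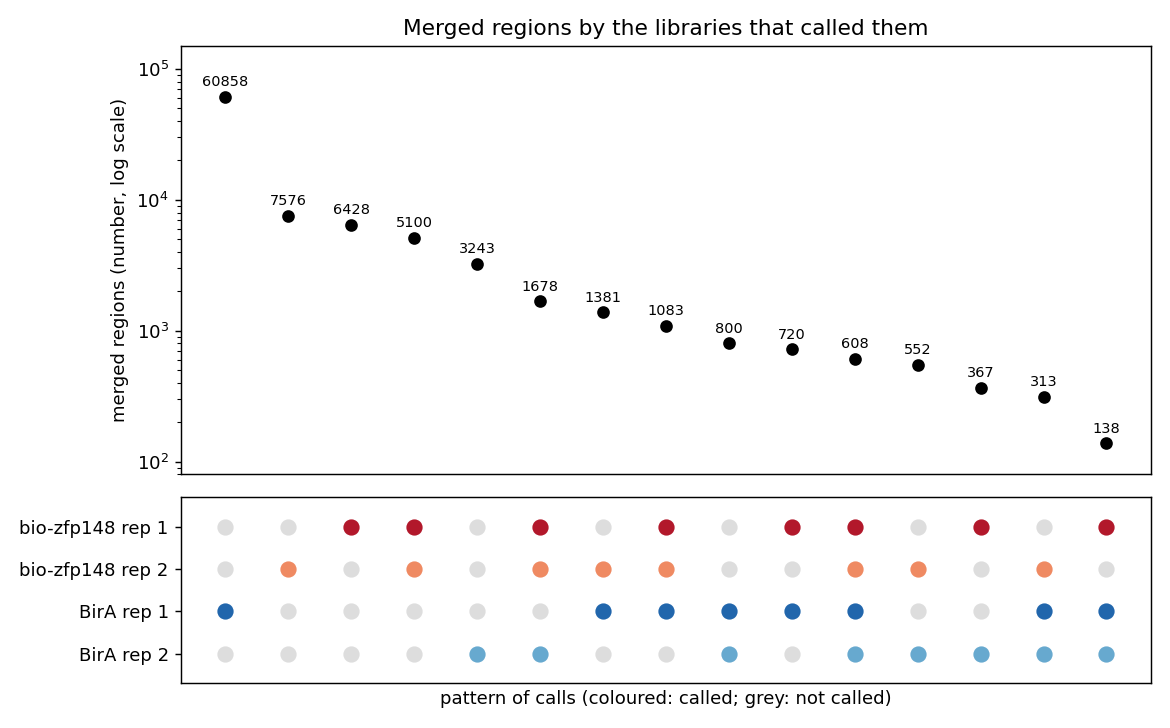
Number of merged regions (vertical axis, log scale) for each combination of the 4 ChIP libraries that called them, with coloured dots under each point marking the libraries that called and grey dots those that did not. The 5100 regions of both bio-zfp148 libraries alone stand beside 1678 shared with BirA replicate 2, 1083 shared with BirA replicate 1 and 608 in all 4.

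The share of regions with a BirA replicate 2 peak went up with the bio-zfp148 level. The share with a BirA replicate 1 peak rose less, and it fell at the highest regions. The replicated bio-zfp148 regions were cut into 10 classes of near-equal size (deciles) by their mean log-scaled tags. BirA replicate 2 called 12.8% (10.6 to 15.2%) of the lowest decile, 19.2% of the fifth, 42.3% of the ninth and 78.2% (75.2 to 80.9%) of the highest. BirA replicate 1 called 16.9% (14.4 to 19.6%) of the lowest, 19.6% of the fifth, 23.3% of the ninth and 16.2% (13.8 to 18.8%) of the highest. Across deciles the share therefore climbed at each step for BirA replicate 2. For BirA replicate 1 it rose unevenly from 16.9% in the lowest decile to 23.3% in the ninth, and fell to 16.2% in the highest. By called length, in contrast, both controls met more of the longer regions. From the shortest to the longest decile the share went from 12.0% to 33.3% for BirA replicate 1 and from 16.2% to 49.5% for BirA replicate 2. Wider regions also have more room to meet a peak.

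At the highest bio-zfp148 regions the typical control level was lower than the bio-zfp148 level. The deciles were sorted by the bio-zfp148 tags themselves. Such sorting favours a control below bio-zfp148 at the top and above it at the bottom, so the contrast is only a description. In the highest decile the median region held 46.9 and 36.1 scaled tags in bio-zfp148 replicates 1 and 2. Where BirA replicate 2 had a peak in that decile, its median was 11.1 scaled tags, and the median ratio to the mean bio-zfp148 level of the same region was 20.6%. For BirA replicate 1 the median was 3.51 and the ratio 8.49%. In the lowest decile, BirA replicate 2 peaks held 5.55 scaled tags against 4.93 and 3.34 in bio-zfp148. The lowest value of any called peak was 4.93 scaled tags in bio-zfp148 replicate 1, 3.34 in replicate 2, 0.752 in the deep BirA replicate 1 and 4.63 in BirA replicate 2. The peak lists hold no value where nothing was called.

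**Figure D3:**
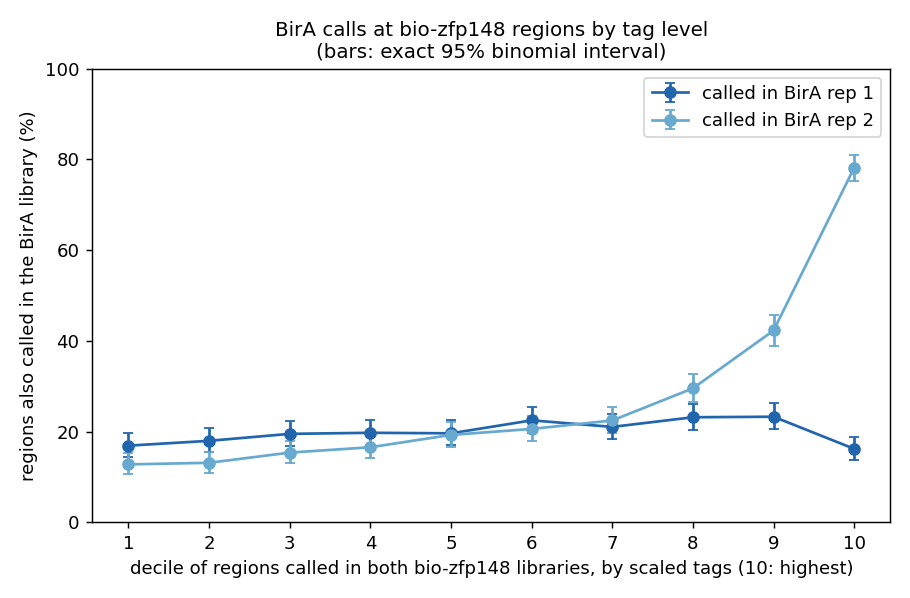
Share of replicated bio-zfp148 regions that each BirA library also called (vertical axis, %), in deciles of the regions by scaled bio-zfp148 tags (horizontal axis, 10 highest), with exact 95% binomial intervals as bars. BirA replicate 2 goes from 12.8% to 78.2%, while BirA replicate 1 goes from 16.9% to 23.3% in the ninth decile and falls to 16.2% in the highest.

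The regions met only by BirA replicate 2 were also the highest in bio-zfp148. Their median was 19.7 and 14.7 scaled tags in bio-zfp148 replicates 1 and 2, against 8.64 and 6.68 at regions with no BirA peak. Regions met only by BirA replicate 1 stood at 8.64 and 7.35, close to those with no BirA peak. Regions met by both BirA libraries lay between, at 12.3 and 11.4. Both bio-zfp148 libraries gave the same order. Across the regions that each pair of libraries both called, tag levels had a Spearman correlation of 0.68 between the bio-zfp148 libraries. It was 0.42 and 0.40 between bio-zfp148 and BirA replicate 2, 0.19 and 0.19 with BirA replicate 1, and 0.27 between the BirA libraries, again as a description over regions.

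Single regions show how far this went, and those named in the next sentences were chosen after their values were seen, as the highest replicated bio-zfp148 regions with a peak in only 1 BirA library. The highest nuclear one, chr22:22899014-22902509 (hg19), held 1494 and 941 scaled tags in bio-zfp148 replicates 1 and 2 and 366 in BirA replicate 2. At chr1:121483961-121485584 the values were 565, 518 and 569, so the control was as high as the tagged libraries, and the authors' fold enrichment over the local background was 0.57, 0.98 and 0.73. At chr21:9825312-9828050 they were 373, 252 and 320. BirA replicate 1 had no peak at any of these. Other high regions differed clearly from the control. At chrX:9309606-9311414 bio-zfp148 held 455 and 311 scaled tags and BirA replicate 2 held 42.6, and at chr5:177847110-177848017 the values were 368, 244 and 29.6. The highest regions met only by BirA replicate 1 were lower, led by chr17:39940282-39942125 with 88.8 and 84.1 scaled tags in bio-zfp148 and 4.39 in BirA replicate 1.

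The regions without any BirA peak were mostly small. Outside the mitochondrial genome there were 5099, with a median span of 667 bp and a median of 8.64 and 6.68 scaled tags in bio-zfp148 replicates 1 and 2. Of these, 72.4% rested on 10 or fewer tags in replicate 1 and 53.3% in replicate 2. When the pooled BirA list was also required to be empty, 4859 of the 8469 replicated regions were left. The named regions below come from these 4859, ordered by the lower of the bio-zfp148 values.

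The first of these lay in the mitochondrial genome (chrM:1-4882), with 2833 and 3705 tags, or 3495 and 2474 scaled tags. The authors' fold enrichment there was only 1.54 and 1.29, and no BirA list called it. The highest nuclear one was chr19:52192705-52195067, with 101 and 127 tags, or 125 and 84.8 scaled tags, at a fold enrichment of 30.8 and 25.5. It was followed by chr12:111763128-111764699 at 138 and 72.8 scaled tags, chr2:200321402-200323351 at 65.4 and 63.4, and chr12:120826808-120827874 at 79.0 and 62.1. In the last of these both libraries put the summit at position 120827236. The remaining 5 regions, on chromosomes 19, 14, 2, 17 and 8, held 51.8 to 102 scaled tags in replicate 1 and 47.4 to 58.8 in replicate 2. In all 10 of these regions replicate 1 exceeded replicate 2, as it did at 73.3% of replicated bio-zfp148 regions. The files carry no gene names, and no annotation of hg19 was used here, so these regions are given by position alone.

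The 608 regions called in all 4 libraries are the only ones with a value in each. Their median level was 12.3 and 11.4 scaled tags in bio-zfp148 replicates 1 and 2, 3.07 in BirA replicate 1 and 6.94 in BirA replicate 2. Both bio-zfp148 libraries exceeded both BirA libraries at 369 of the 608 (60.7%) and lay below both at 9 (1.48%). These counts lean towards bio-zfp148 through the calling floors given above. BirA replicate 1 lay under the lowest possible bio-zfp148 replicate 1 value at 478 of the 608 regions, and both bio-zfp148 libraries could lie below both controls at only 109. Of those 109, both bio-zfp148 libraries lay above both controls at 50 and below at 9. In limma on log2 scaled tags, the median difference between the groups was 1.32 (quartiles 0.55 and 2.07). It called 136 regions higher in bio-zfp148 (22.4%) and 0 lower at an adjusted p under 0.05 (Benjamini-Hochberg over the 608), with 217 and 0 at an unadjusted p under 0.05. The regions called higher had a median difference of 2.68 and none was under 2.16. Limma took each region's variance from a trend over all 608 regions. Its SE and p therefore do not measure the spread between libraries at a single region. Of the 109 regions where the floors allowed either direction, 11 were among the 136. A merged region need not hold 1 shared site. Both bio-zfp148 summits lay inside a peak of both BirA libraries at 401 of the 608 regions, and at 77 of the 136 called higher.

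How many were called depended on the scaling, and the median difference changed with the libraries kept. With tags scaled to those in each library's own peaks, the median difference was 0.00 and limma called 0 regions, with 11 higher and 1 lower at an unadjusted p under 0.05. With the median difference set to 0, limma called 13 regions higher and 3 lower, so relative to the typical shared region both directions occurred. Per kb of called length 0 were called (10 higher at an unadjusted p under 0.05), with a median difference of 1.41. A pseudocount of 5 tags in place of 0.5 left 18 regions higher, at a median difference of 1.39. Leaving out a BirA library left more regions to test. The median difference was 1.00 over 2271 regions without BirA replicate 1 and 2.07 over 1683 without BirA replicate 2. The latter rests on BirA replicate 1 alone, whose values lay largely under the calling floors of bio-zfp148. This was so at 90.3% and 74.5% of the regions it shared with bio-zfp148 replicates 1 and 2. For BirA replicate 2 these shares were 27.3% and 0%. Without bio-zfp148 replicate 1 the median difference was 0.73 over 908 regions, and without replicate 2 it was 1.22 over 735. In these fits the lone library of a group is assumed to vary like the other group, so their calls are not given.

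**Figure D4:**
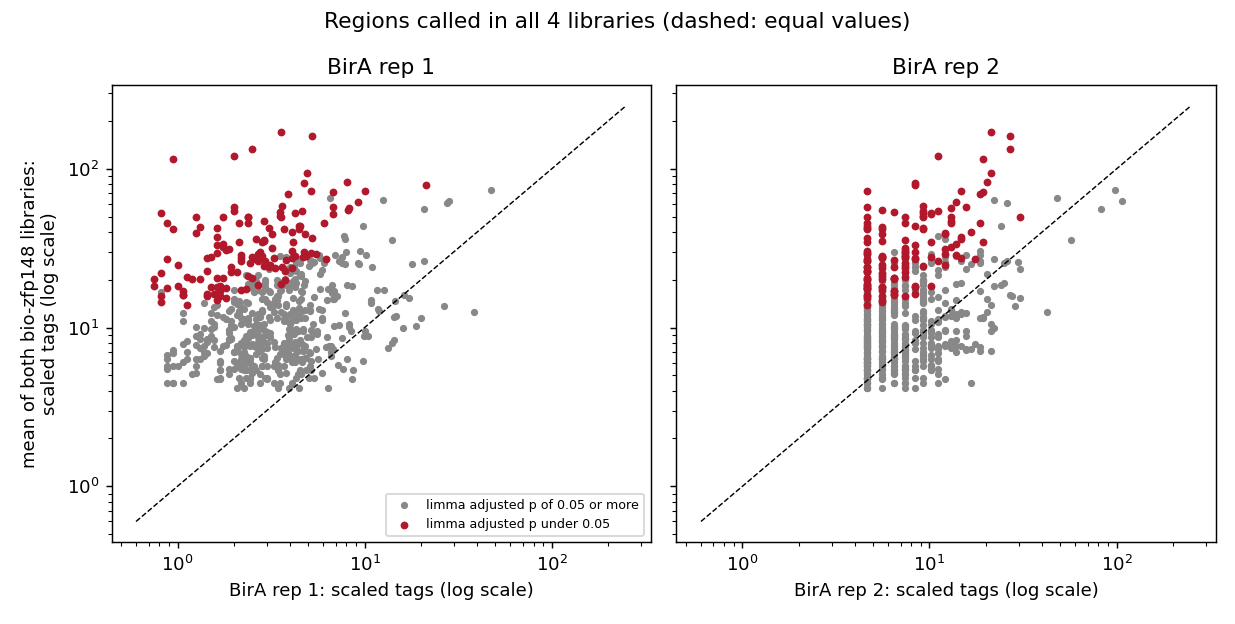
Scaled tags at the 608 regions called in all 4 libraries, with the mean of both bio-zfp148 libraries (vertical axis, log scale) against BirA replicate 1 (left) and BirA replicate 2 (right; horizontal axes, log scale), 1 point per region, and the dashed line at equal values. Red points are the 136 regions higher in bio-zfp148 by limma at an adjusted p under 0.05, and most points lie above the line in both panels, further above it for BirA replicate 1, whose calls reach down to 0.752 scaled tags while those of bio-zfp148 stop at 4.93 and 3.34.

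Single pairs of libraries are set side by side here, but their direction was largely fixed by the calling floors wherever BirA replicate 1 was involved. Bio-zfp148 replicate 1 was higher than BirA replicate 1 at 97.4% of the regions both called, and higher than BirA replicate 2 at 80.1%. Bio-zfp148 replicate 2 was higher than BirA replicate 1 at 91.3% and than BirA replicate 2 at 62.1%. The BirA value lay under the lowest value that a bio-zfp148 peak could have at 90.3% and 74.5% of the regions shared with BirA replicate 1, for bio-zfp148 replicates 1 and 2. For BirA replicate 2 this was so at 27.3% and 0%. At the remaining regions bio-zfp148 replicate 1 was higher at 73.0% and 72.6%, against BirA replicates 1 and 2, and bio-zfp148 replicate 2 at 66.0% and 62.1%.

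Among the 10 regions of all 4 libraries with the highest bio-zfp148 levels, 9 were called higher in bio-zfp148, against 136 of all 608 (22.4%). The ranking used the bio-zfp148 values that also enter the tested difference. A high share of calls among the 10 is therefore favoured by their choice and is no separate support. With the median difference set to 0, limma called 6 of these 10, with a pseudocount of 5 tags 7, and scaled to tags in peaks or per kb of called length 0. At chr6:32935124-32939281 the values were 174 and 166 scaled tags in bio-zfp148, 3.57 in BirA replicate 1 and 21.3 in BirA replicate 2. That is a log2 difference of 4.26 (SE 0.98; limma adjusted p = 8.49e-04). At chr7:5462918-5465695 they were 118 and 113 in bio-zfp148 and 0.94 and 19.4 in BirA. The log2 difference there, 4.72 (SE 0.89; limma adjusted p = 7.16e-05), was the largest of the 608. At chr22:42695254-42697389 bio-zfp148 held 116 and 125 scaled tags and BirA 2.01 and 11.1, a log2 difference of 4.64 (SE 0.90; limma adjusted p = 7.95e-05). In each of these 3 regions both tagged libraries stood far above both controls, and the controls differed from each other by several fold. The SE given for each comes from all 608 regions and does not measure that spread. The BirA replicate 1 values there came from neighbouring peaks, with summits 3083, 780 and 799 bp from those of bio-zfp148 replicate 1 on chromosomes 6, 7 and 22, and no such peak held the bio-zfp148 summits. The BirA replicate 2 summits lay 29, 13 and 3 bp away. The log2 differences of these regions therefore set the BirA replicate 1 signal of a neighbouring stretch beside the bio-zfp148 site. At 5 of the 10 regions a BirA replicate 1 peak held both bio-zfp148 summits.

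The remaining region of these 10 behaved otherwise. At chr1:91852627-91853686 bio-zfp148 held 72.8 and 74.1 scaled tags, BirA replicate 1 held 47.4 and BirA replicate 2 held 98.1. The groups overlapped, with a log2 difference of 0.11 (SE 1.12; limma adjusted p = 0.953). This difference was negative with tags scaled to those in peaks, centred, or taken per kb of called length. The other 6 regions called higher, on chromosomes 15, 6, 2, 22, 15 and 6, had log2 differences of 2.54 to 4.00 (limma adjusted p from 0.00143 to 0.0386). The lowest difference among the 608 was at chr4:49022-53490, with 13.6 and 11.4 scaled tags in bio-zfp148 and 38.7 and 42.6 in BirA, a log2 difference of -1.66 (SE 0.89; limma adjusted p = 0.159). Both controls stood above both tagged libraries there, but the test was not passed.

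Regions called in both BirA libraries and no bio-zfp148 list were low. The highest was chr22:19131229-19133045, with 252 tags in BirA replicate 1 and 18 in BirA replicate 2, or 15.8 and 16.7 scaled tags. Next came chr19:14622825-14625670 at 9.71 and 10.2, chr22:22114746-22116698 at 8.40 and 10.2, chr2:133018741-133020630 at 8.08 and 11.1, and chr22:19952535-19954837 at 8.40 and 7.405. These 5 regions had similar levels in the BirA replicates, which ranking by the lower BirA value favours. Of the 5, 3 lay on chromosome 22, which held 26 (3.25%) of the 800 regions of both BirA libraries alone. Over all 800 regions of both BirA libraries alone the median was 2.16 and 4.63 scaled tags.

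Summits placed the bio-zfp148 peaks nearer to BirA replicate 2 than to BirA replicate 1. Between overlapping peaks of the bio-zfp148 replicates the median distance was 47 bp. It was 61 bp from either bio-zfp148 library to BirA replicate 2, and 172 and 162 bp from bio-zfp148 replicates 1 and 2 to BirA replicate 1. The BirA replicates themselves lay 112 bp apart. At the regions of all 4 libraries the order was the same, with 46 bp between the bio-zfp148 replicates, 85.5 and 73.5 bp to BirA replicate 2 and 169 and 157.5 bp to BirA replicate 1. Peaks of BirA replicate 1 at these regions covered a median of 1002.5 bp, against 550 bp in BirA replicate 2 and 606.5 and 727 bp in bio-zfp148, and wider peaks allow larger distances.

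The pooled bio-zfp148 list was longer than either single list and drew on both libraries joined. Of its peaks, 10183 met a BirA list and 34019 met none. A peak in both single bio-zfp148 lists stood behind 35.7% (34.8 to 36.6%) of those that met BirA and 14.4% (14.0 to 14.7%) of those that did not. Peaks with no single-library peak behind them made up 28.1% and 51.5%. The pooled peaks free of BirA calls thus had less replicate support. Among those backed by both libraries, the median pooled peak held 42 tags where a BirA list met it and 28 where none did.

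Each library's share of its own peaks was also compared in windows of 1 Mb, where no window passed the limma test. Of 2571 windows, limma called 0 higher and 0 lower in bio-zfp148 at an adjusted p under 0.05, with 10 higher and 309 lower at an unadjusted p under 0.05 and a lowest adjusted p of 0.254. Both bio-zfp148 libraries lay above both BirA libraries in 360 windows (14.0%) and below both in 530 (20.6%). With both BirA libraries the median log2 difference over windows was -0.26. It was -0.035 over 1235 windows without BirA replicate 1 and -0.60 over 2565 without BirA replicate 2, so it changed with the control library. A lone control library has no spread of its own, so the calls of these fits are not given.

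Among windows where the groups did not overlap, the 5 with the largest difference on each side all failed the test. The first Mb of chromosome 1 held 14 and 13 peaks in bio-zfp148 and 0 and 3 in BirA, a log2 difference of 3.78 (SE 1.69; limma adjusted p = 0.459). The window from 50 to 51 Mb of chromosome 22 held 13 and 14 peaks in bio-zfp148 and 11 and 0 in BirA, a log2 difference of 2.92 (SE 0.73; limma adjusted p = 0.343). The other 3 on this side lay on chromosomes 9, 14 and 22. On the BirA side, the window from 31 to 32 Mb of chromosome 21 held 0 and 0 bio-zfp148 peaks and 40 and 1 BirA peaks, a log2 difference of -3.58 (SE 0.76; limma adjusted p = 0.254). The other 4 lay on chromosomes 18 and 4, with 0 or 1 bio-zfp148 peak and 1 to 3 peaks in BirA replicate 2. In each of these 5 windows most of the BirA peaks came from BirA replicate 1, whose list is far longer. By share of its own list, the test's measure, the controls were nearly equal in 1 of the chromosome 4 windows. They held 0.258 and 0.256 of every 1000 peaks there. In the other 4 windows BirA replicate 1 held 0.394 to 0.606 and BirA replicate 2 held 0.128 to 0.384.

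Regions called in both bio-zfp148 libraries alone were unevenly spread, and the windows and chromosomes given here were chosen after their counts were seen. The window from 54 to 55 Mb of chromosome 12 held 25 of them, and the window from 10 to 11 Mb of chromosome 19 held 22. Per Mb of chromosome, chromosome 19 held 6.95 such regions and chromosome 17 held 3.97, against 0.685 on X and 0.687 on chromosome 13. All replicated bio-zfp148 regions were spread alike, at 11.5, 6.59, 1.08 and 1.06 per Mb, and the share of them without a BirA peak was 60.7%, 60.2%, 63.1% and 64.8% on these chromosomes, against 60.2% over all. Regions of both BirA libraries alone were densest from 23 to 24 Mb of chromosome 22, with 7. In that window BirA replicate 2 had 12.9 of every 1000 of its peaks, against 4.45 and 4.62 in bio-zfp148 and 1.08 in BirA replicate 1.

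Shares of peaks by chromosome separated the groups in few cases. Both bio-zfp148 libraries lay above both BirA libraries on 4 of 25 chromosomes (16.0%), namely 12, 16, 17 and the mitochondrial genome, and below both on 4 (16.0%), namely 6, 7, 13 and 21. Chromosome 19 took 7.04% and 7.71% of the bio-zfp148 peaks and 7.55% of the BirA replicate 2 peaks, but 1.89% of the BirA replicate 1 peaks. Chromosome 22 took 3.28% and 3.02% in bio-zfp148, 1.06% in BirA replicate 1 and 5.10% in BirA replicate 2. K562 cells carry extra copies of part of chromosome 22 along with the BCR-ABL1 fusion, and its part in these shares was not tested. Of the replicated bio-zfp148 regions, the share met by either BirA library ranged from 32.1% on chromosome 4 to 48.9% on chromosome 6, leaving out Y and the mitochondrial genome.

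**Figure D5:**
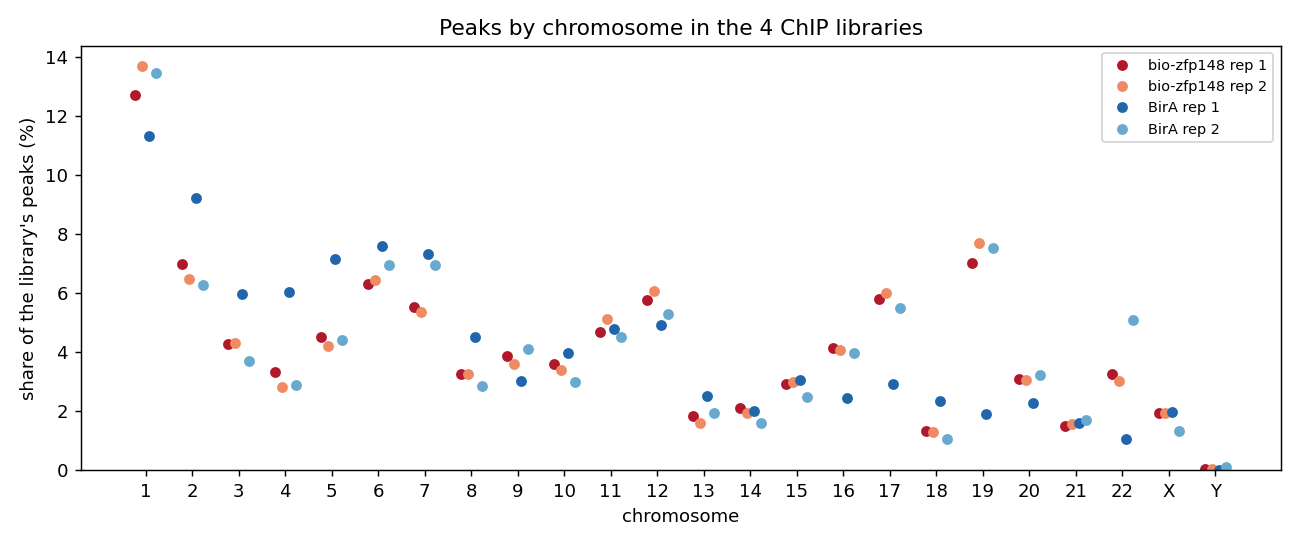
Share of each library's peaks on each chromosome (vertical axis, %), 1 point per library. The bio-zfp148 libraries and BirA replicate 2 lie near each other on most chromosomes and together above BirA replicate 1 on chromosome 19 (7.04%, 7.71% and 7.55% against 1.89%), and BirA replicate 2 stands highest on chromosome 22 at 5.10%.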

How the data were processed

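The submitters' processing notes name Bowtie 1.0.0, MACS 1.4 and the build hg19, and the peak lists come from MACS 1.4.0rc2 per the file headers. Per the file headers the p cutoff was 1e-05 and each list was called against an input. The authors made a list for every library and a further one for the joined replicates of a group. The deposited lists give, per peak, a raw tag count, a score that is 10 times the negative log10 of p, the fold enrichment as a ratio, a false discovery rate in percent, and width and summit in bp. The authors' fold enrichment is each peak's own value and was used only to describe or filter. Filtered tags per library came from the file headers.

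Peaks overlapping by at least 1 bp were merged. Tags were summed per region and library and scaled to 1000000 filtered tags. Limma (3.58.1, R 4.3.3) was fitted to log2 of (tags + 0.5) scaled in this way over the regions of all 4 libraries, and to log2 of (peaks + 0.5) per 1000 peaks over 1 Mb windows with at least 10 peaks. The region fit took its variances from a trend over the mean level of all regions tested. No count model was used, since each library sets its own peak edges. Intervals are exact (Clopper-Pearson). Both limma fits were run on simulated counts with planted differences, and overlap counts between bio-zfp148 and BirA lists were checked against bedtools. The simulated counts had no calling floors and no offset between the BirA replicates. They therefore do not test how these features act on the calls given here. Python 3.11.15, numpy 2.4.6, pandas 2.3.3, scipy 1.17.1, matplotlib 3.10.9 and bedtools 2.31.1 were used.

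Named regions were the 10 highest by the lower bio-zfp148 value among those of both bio-zfp148 libraries with no BirA list and among those of all 4, the 5 highest by the lower BirA value among those of both BirA libraries with no bio-zfp148 list, and the 5 largest window differences each way without overlap. Members and lists were chosen with earlier results of these data known. Planned gene lists and motif counts needed an hg19 annotation or genome and were not run. Alternatives are given in the closing section. The mitochondrial peaks start below position 1 in the lists and were clipped to 1.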

Additional observations from a re-analysis of the deposited data

How the results depend on the processing

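Of 117 alternatives for the main results, 64 kept the value near or on the same side. The 64 include counts of 0 that stayed 0. They also include median tag differences that moved by less than the median SE of 0.88. A fold enrichment of at least 10 left 2064 regions of both bio-zfp148 libraries alone, 4 of all 4, 78 of both BirA libraries alone and 6.31% of replicated regions met by BirA. The strongest 5000 peaks gave 2048, 58, 349 and 32.4%. A p score of at least 100 gave 253 of all 4, 344 of both BirA libraries alone and 30.4% met. The share met was 36.8% at 50% overlap, 26.3% against the pooled BirA list and 42.7% against any BirA list. Leaving out a library in turn gave 6207 to 12877 bio-zfp148-only regions, 19.9 to 30.2% met, 735 to 2271 regions of all groups and 939 to 61683 BirA-only regions, since a group with 1 library needs only that call. Among regions of all groups limma then called 0 to 1238 higher and 0 to 2 lower, with medians of 0.73 to 2.07, and in windows 0 to 127 higher and 0 to 525 lower. With all 4 libraries, 0 regions were called higher when scaled to tags in peaks (median 0.00488). When centred, 13 were higher and 3 lower (median -0.0429). A pseudocount of 5 gave 18 higher, and tags per kb gave 0. Windows of 250 kb gave 2 higher. With the replicate block, 6 regions were higher, and 2 windows were higher and 37 lower. Same-numbered libraries deviated together with a correlation of 0.12 over windows and -0.05 over regions, so the numbers are not known to pair them. The difference at chr1:91852627-91853686 reversed to -1.20 scaled to tags in peaks, -1.25 centred and -0.235 per kb. The difference in median width reversed to -113.5 bp at a p score of at least 100 and -42 bp among the strongest 5000 peaks. Summit medians by pair were 61, 61, 162 and 172 bp. At 50% overlap, pooled peaks that met BirA had support from 0 and 2 libraries in 27.1% and 36.9%. The causes were not tested. A maximum FDR of 5% could not be applied to BirA replicate 1, where 0 peaks passed it. Of the 10 named bio-zfp148-only regions, 9 or 10 stayed in the set under every overlap, threshold and library alternative run. Their choice as the highest regions with no peak in any BirA list fixed or favoured this. It is therefore no separate support.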

Other observations

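Bio-zfp281, the tagged form of a related zinc finger protein, was also pulled down from hemin-treated K562 cells that express BirA, and its peak lists give a further readout at the same regions. Of the 5100 regions called in both bio-zfp148 libraries and in neither BirA library, bio-zfp281 replicate 1 met 78.6% (77.4 to 79.7%) and replicate 2 met 45.9% (44.6 to 47.3%). It met 97.5% and 76.8% of the 608 regions of all 4 libraries, and 44.6% and 13.0% of the 800 regions of both BirA libraries alone. The 9 nuclear regions named for bio-zfp148 without BirA were all called in both bio-zfp281 libraries. At chr17:58238857-58239318 bio-zfp281 held 70.7 and 69.5 scaled tags (tags per 1000000 filtered tags), beside 51.8 and 48.7 in bio-zfp148. At chr8:145596258-145596984 it held 19.7 and 13.2, beside 67.9 and 47.4. The mitochondrial region had no bio-zfp281 peak.

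Set against the same BirA libraries, 47.9% (46.7 to 49.1%) of the 7050 regions called in both bio-zfp281 libraries had a BirA peak, beside 39.8% for bio-zfp148. BirA replicate 2 met 12.8% of the lowest decile of bio-zfp281 regions by tags and 80.1% of the highest, and BirA replicate 1 met 21.3% of each. Both comparisons share the BirA libraries, and the difference between them was not tested.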
